A study of Mus musculus with 2 samples.

Results

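The array carries 4449 probes that are named by a stretch of the mouse genome and a strand letter, F or R, and not by a transcript or gene. They were chosen by their name alone: a non-control probe was taken when its systematic name held a chromosome, a start, an end and 1 of these letters. The meaning of F and R is not given with the data, and they are taken here as the strand of the interval. Of the 4449, 4448 gave a usable spot on both arrays, which is 7.86% of the 56595 probes used. They name 3229 intervals on 20 chromosomes, and 2227 of the probes carry F and 2221 carry R. One other probe names an interval with no strand letter and was left out. The study compared a murine glioblastoma stem cell line carrying a lentiviral non-target shRNA (control) with the same line carrying a lentiviral Gli2 shRNA, both stably transduced, with 1 array for each of the 2 groups. The line was set up by the neurosphere method from mouse brain tumours induced with an SB transposon and was grown without serum, with EGF and bFGF added. The labels do not say whether it is 1 clone. Gli2 is a zinc finger transcription factor that carries Hedgehog signals to target genes.

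Long intergenic noncoding RNAs are transcripts made from DNA between protein-coding genes. Many were first found as stretches of chromatin with the marks of an active promoter followed by those of transcription, and such a map gives the borders of a stretch but not the strand that is read. Some act in the nucleus on chromatin and nearby genes, some have other roles, and for most no role is known. Their levels are often low and vary strongly between cell types, with many described in brain and neural progenitors. The files do not say how the named intervals were picked, nor that they are intergenic or noncoding. An annotation of the intervals' build was not used here, so no interval is assigned to a gene, an exon or an intron, and the probes are called interval probes below.

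The file headers give mm9 as the genome build of the array's grid, and all positions below are taken as mm9. 16 intervals on 6 chromosomes end past the last gene of the later assembly GRCm38.p6. Beyond this count, no position of that assembly was used. Interval length ran from 62 to 538251 bases, with a median of 7207 bases and 25th and 75th percentiles of 698 and 21044 bases. 2261 intervals had 1 probe, 783 had 2 and 185 had 3 or more, up to 8. 1236 intervals were probed with F only, 1161 with R only and 832 on both strands. 1740 intervals overlapped another interval of the set, so that many of the probes are neighbours and not independent of each other.

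Each array held 62976 spots, and no non-control spot was saturated. Over all probes, 59.5% were well above background in control cells and 57.1% with the Gli2 shRNA. The single Gli2 probe read a processed signal of 98.1 in control cells and 57.9 with the Gli2 shRNA, a difference of -1.04 ± 0.22. A difference is the log2 scaled value of the Gli2 shRNA array minus that of the control array. The error is the scanner software's own for both spots. With normexp, a background correction that shrinks differences of dim spots toward 0, the Gli2 difference was -0.64, within 2-fold. Of the neural stem cell markers, 5 of 6 were well above background on both arrays, against 2 of 6 for microglia (Csf1r and Itgam), 2 of 5 for endothelium (Pecam1 and Kdr) and 1 of 5 for fibroblasts (Col1a2), and none of these passed 2-fold. Itgam was bright (4694 and 5413, -0.07), with another probe at 0.37, and Csf1r read 389.9 and 432.5 (-0.13), with another at 0.02. Prom1, the remaining stem cell marker, was measured with the Gli2 shRNA only (14.59 and 20.15). 3 other microglia markers were measured in control cells only: Aif1 (17.5 and 5.64), P2ry12 (19.1 and 6.46) and Tmem119 (21.5 and 14.3). Their log2 bounds were -0.49, -0.61 and -0.78. The part of the microglia markers in the results below was not tested. As each group is a single array, no test was possible, and the errors do not cover the spread between cultures. Fewer cells that make an RNA and less of it per cell cannot be told apart in such bulk samples.

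Fewer than 50% of the interval probes were measured on both arrays. "Measured" means that the scanner software marked the spot as well above background. 2074 interval probes (46.6%) were measured on both arrays and 1906 (42.9%) on neither. A further 328 were measured with the control only and 140 with the Gli2 shRNA only. Of the 3229 intervals, 1662 (51.5%) had a probe measured on both arrays, and 1224 had none on either. The share measured on both arrays was 66.4% for probes named by RefSeq mRNAs, 49.7% for those named by Ensembl transcripts and 29.0% for those named by RefSeq noncoding RNAs. Interval probes thus lay between the coding and the noncoding RefSeq probes. The files do not describe how the probes of each class were designed.

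The letters F and R made little difference to detection: 1029 F probes (46.2%) and 1045 R probes (47.1%) were measured on both arrays. Interval length went with it. With the intervals split by length into 4 bins, the share of probes measured on both arrays was 35.1% in the shortest bin, 46.6% and 48.8% in the next ones and 51.7% in the longest. By chromosome, with chromosome 18 not given, the share ran from 35.3% on chromosome 12 to 57.8% on chromosome 17.

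Among the probes measured on 1 array only, 70.1% were measured on the control array, close to the 67.9% over all probes.

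Most interval probes that could be measured had similar values on both arrays. Of the 2074, 2003 (96.6%) lay within 2-fold, 21 were at least 2-fold higher with the Gli2 shRNA and 50 at least 2-fold lower. The 21 higher probes are 1.01% of those measured, beside 1.40% of all non-control probes, and the 50 lower probes are 2.41%, beside 1.78%. In either direction together 3.42% of interval probes passed 2-fold, beside 3.19% of all non-control probes, which is near the background. Lower probes made up 70.4% of the interval probes past 2-fold and 55.9% of all probes past 2-fold. This split moves with the scaling: with median scaling and with cyclic loess it was 56.1% for the interval probes (32 lower and 25 higher), and 36.9% and 44.6% for all probes. With normexp the order turned, with 57.1% for the interval probes (8 lower and 6 higher) and 61.0% for all probes, and at 3-fold it was 41.2% (7 lower and 10 higher) and 51.6%.

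The median difference of the interval probes was -0.07, with an SD over probes of 0.43, and 1268 of them (61.1%) lay below 0. Over all probes measured on both arrays the median was -0.02, the SD 0.41 and the share below 0 53.5%. With median scaling the medians were 0.07 and 0.11, so the direction from 0 is not settled. In both scalings the median of the interval probes lay below that of all probes. It also did with normexp (-0.12 and -0.06), quantile normalization (-0.03 and 0.004) and cyclic loess (-0.01 and 0.01). The probes named by RefSeq noncoding RNAs had a median of -0.09 and 62.1% below 0, much like the interval probes, whereas those named by RefSeq mRNAs had a median of -0.002. All 19 chromosomes given had a median of the interval probes below 0, from -0.18 on chromosome 16 to -0.0005 on chromosome 19. Median scaling adds the same amount to every probe, so this count rests on the choice of scaling.

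Interval probes were dimmer than the rest of the array. Their median signal was 74.1 in control cells and 86.9 with the Gli2 shRNA, against 275 and 333 for the other probes measured on both. When the interval probes were split into 4 bins by their mean scaled value, 4.24%, 5.02%, 2.90% and 1.54% passed 2-fold from the dimmest to the brightest bin. Other probes within the same limits gave 5.39%, 6.01%, 4.19% and 1.37%. At like signal, then, the share past 2-fold was lower for interval probes than for other probes in the 3 dimmer bins and slightly higher in the brightest, differences that could not be tested. The medians followed the signal too: -0.16 for interval probes and -0.13 for other probes in the dimmest bin, and -0.03 and -0.01 in the brightest.

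The share of measured probes past 2-fold was higher in short intervals. It was 5.17% in the shortest bin, then 4.61% and 3.41%, and 1.90% in the longest. Their median control signal went from 54.4 in the shortest to 101 in the longest bin, so that length and signal move together here and their parts in this were not tested. On chromosome 11 no interval probe of 90 measured passed 2-fold (no test was run, with 1 array per group). Chromosome 9 had the highest share, 6 of 81 (7.41%), and chromosome 1 the highest count, 8 of 152 (5.26%). These were picked as the extremes of the 19 chromosomes given. Over all chromosomes 3.42% of the measured interval probes passed 2-fold, beside 3.19% of all non-control probes.

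The probe with the largest lower value sits on the R strand of chr14:105987405-106063477 (A_30_P01023713). Its processed signal was 299 in control cells and 36.8 with the Gli2 shRNA, 9.84-fold lower on the scaled values (-3.30 ± 0.24). The F probe of the same interval went the other way and was measured on the Gli2 shRNA array only (8.44 and 33.1). On the F strand of chr9:67414463-67483185 a probe read 167 in control cells and 28.0 with the Gli2 shRNA, 7.24-fold lower (-2.86 ± 0.27). The R probe of that interval, also measured on both arrays, was level at -0.03 ± 0.24 (47.3 and 56.0). An F probe inside the chromosome 14 interval, at chr14:105988692-105994145, was level too (803 and 885, -0.14). In both intervals the low value was that of 1 probe, the only probe of its strand there. Whether it holds for the strand cannot be told.

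The brightest of the lower probes was the R probe of chr4:136856064-136877219 (A_30_P01029358). Its signal was 17680 in control cells and 6239 with the Gli2 shRNA, 3.43-fold lower (-1.78 ± 0.20). It is far above background on both arrays, and it stayed at -1.73 after normexp, a background correction that shrinks differences of dim spots toward 0. The F probe of this interval was at 111 and 77.1, a difference of -0.80 ± 0.21, on the same side of 0. In the overlapping interval chr4:136856064-136875614 the F probe was measured on the control array only and was at least 2.27-fold lower (28.5 and 8.53), and its R probe was measured on neither array. Probes of both strands therefore lay below 0 here, at very different signals, which cannot be compared as levels because the probes differ.

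A second place with lower values on both strands was chr14:65431652-65437902. Its F probe had a signal of 366 in control cells and 155 with the Gli2 shRNA, 2.86-fold lower (-1.52 ± 0.21, and -1.23 with normexp). The R probe of the overlapping interval chr14:65430484-65432413 gave 959 and 467, a difference of -1.32 ± 0.20 (-1.18 with normexp). The R probe of the first interval, however, was at -0.32 (90.2 and 87.4), within 2-fold. Further along the same chromosome, the interval chr14:65720392-65769859 had 6 R probes and 1 F probe. 2 of the R probes were measured on both arrays, at -1.37 ± 0.33 (47.8 and 22.4) and -0.99 ± 0.25 (71.2 and 43.4), 1 more was measured only in control cells and was at least 1.47-fold lower, and the others on neither array. This interval was chosen after its values were seen.

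The other lower probes named by rank were mostly near background in the Gli2 shRNA array. On the X chromosome, the F probe of chrX:121493684-121500532 was at 177 in control cells and 53.4 with the Gli2 shRNA, 4.01-fold lower. The R probes of chr13:24613384-24613726 (71.0 and 20.4) and chr13:53100475-53113850 (82.3 and 25.8) were 4.22-fold and 3.87-fold lower, and the F probe of chr10:38969397-38972974 (64.8 and 21.8) 3.60-fold. These 3 probes were within 2-fold with normexp, at -0.88, -0.91 and -0.74. The F probes of chr4:3746945-3747603 (58.6 and 25.2) and chr9:4260788-4261404 (54.5 and 24.1) followed at 2.82-fold and 2.74-fold, with -0.67 and -0.64 after normexp. Of the 50 lower probes in all, 35 had a signal under 100 on both arrays, all 50 kept their sign with normexp and 8 of them stayed past 2-fold.

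The highest difference was that of the R probe of chr6:145835154-145835267, an interval of 114 bases with 1 probe. Its signal was 18.7 in control cells and 238 with the Gli2 shRNA, 10.5-fold higher (3.40 ± 0.35). The nearest other interval of the set, chr6:145647711-145756861, was level on both strands, at 0.08 (F) and -0.01 (R). The R probe of chr5:107503800-107515575 was at 29.4 and 193, 5.42-fold higher (2.44 ± 0.24), with no second probe in its interval. An F probe on chr13:23517278-23523756 was at 18.6 and 176, 7.82-fold higher (2.97 ± 0.31), while the R probe of the overlapping interval chr13:23519843-23522887 was at 68.0 and 50.5, a difference of -0.71. With normexp these probes were at 1.15, 1.10 and 1.10, all still past 2-fold.

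The interval chr7:134369091-134376366 shows how much can rest on a single probe. Its R probe A_30_P01019006 had a signal of 26.2 in control cells and 284 with the Gli2 shRNA, 8.95-fold higher (3.16 ± 0.26, and 1.64 with normexp). A second R probe of the same interval, A_30_P01033650, was at 213 and 258, a difference of -0.004, and the F probe was at 144 and 192, a difference of 0.14. 2 R probes of intervals inside it were measured as well, chr7:134372392-134372943 at 99.2 and 180 (0.58) and chr7:134374716-134375286 at 121 and 153 (0.07). The large difference was therefore not seen on the other measured probes of the place, and the files do not say which bases each probe covers.

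The other higher probes named by rank started from dim control values. On chr8:40257009-40258777 the F probe was at 24.7 and 162 (5.42-fold), and an F probe of the interval that contains it, chr8:40238025-40264250, was level at 5031 and 5887 (-0.05). On the same chromosome the R probe of chr8:122928924-122929556 was at 54.2 and 275 (4.18-fold, but within 2-fold with normexp at 0.80). In the interval that contains it, chr8:122920901-123008463, the R probe was at 95.5 and 99.9 (-0.21) and the F probe at 57.8 and 80.5 (0.20). 2 more probes of chromosome 7 were higher: the R probe of chr7:134807861-134809001 (14.5 and 74.9, 4.27-fold) and the F probe of chr7:150205925-150233950 (41.6 and 197, 3.91-fold). The F probes of chr9:78367773-78374723 (20.0 and 87.3) and chr15:78403377-78412545 (24.8 and 97.5) were 3.61-fold and 3.24-fold higher, and the R probe of each of these intervals was measured on neither array. Inside the chromosome 9 interval, the F probe of chr9:78372153-78372834 was level (108 and 132, 0.01). Inside the chromosome 15 interval, the R probe of chr15:78404840-78412046 was measured on both arrays, at 1913 and 3005 (0.37). Of the 10 higher probes, 5 stayed past 2-fold with normexp, and of all 21 higher probes 6 did.

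Higher values were shared by several probes at 1 place, singled out after its values were seen. The interval chr10:81816994-81863610 has 2 F probes, at 52.2 and 146 (1.20 ± 0.22) and at 258 and 616 (0.98 ± 0.20). The F probe of the interval chr10:81846505-81863606, which lies inside it, was at 264 and 646 (1.02 ± 0.20). The 3 probes were higher by about the same amount, and with normexp they were at 0.67, 0.79 and 0.94. Among the 355 intervals with 2 or more probes measured on both arrays, 0 had 2 of these past 2-fold in the same direction, with no test run. Of the interval probes measured on both arrays, 1.01% were past 2-fold higher and 2.41% lower, beside 1.40% and 1.78% of all non-control probes. At such shares few intervals of this kind are to be expected, so the count tells little about agreement between probes.

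Among the other probes past 2-fold, the following were chosen after their values were seen because a second probe of the interval was measured. In chr2:172343878-172344212 the R probes lay on opposite sides of 0, at 33.7 and 18.2 (-1.17 ± 0.37) and at 50.8 and 109 (0.83 ± 0.22). In chr6:120670699-120677449 the F probes were at 56.9 and 27.4 (-1.33 ± 0.28) and at 49.8 and 56.0 (-0.11). The lower value was in each case that of 1 probe of the strand. In chr10:24269317-24270145, by contrast, 1 R probe was at 191 and 107 (-1.11 ± 0.21) and the other R probe was measured in control cells only and was at least 2.56-fold lower.

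Probes of the opposite strand were often level where a probe of 1 strand passed 2-fold. In chr13:108548345-108679004 the F probe was at 48.7 and 26.7 (-1.15 ± 0.29) while the R probe, far brighter, was at 36410 and 43690 (-0.01). In chr1:141070245-141076841 the R probe was higher, at 21.2 and 66.1 (1.37 ± 0.38), and both F probes were near 0, at -0.11 and -0.09. The F probe of chr2:157838320-157853495 was at 170 and 76.3 (-1.44 ± 0.22) and its R probe at 22.6 and 32.0 (0.22 ± 0.33). Both strands lay below 0 in chr4:8865575-8899400, with the R probe at 79.9 and 39.1 (-1.31 ± 0.24) and the F probe at 26.9 and 21.0 (-0.64 ± 0.37). Of the 20 opposite-strand pairs with 1 probe past 2-fold, none had the other past it too (0 of 20, with no test run). Some probes enter more than 1 of these pairs. Of the probes measured on both arrays, 3.42% of interval probes and 3.19% of all non-control probes passed 2-fold. At such shares a count of 0 is near the background and tells little about the strands.

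Some interval probes were measured on 1 array only, so that a bound of the difference can be given: the dim side is set to the lowest signal that passed on its array, or to the probe's own signal where that is higher. Of the 140 seen with the Gli2 shRNA only, 33 had a bound of 2-fold or more (23.6%, beside 25.6% of all such probes). Of the 328 seen with the control only, 55 did (16.8%, beside 17.7%). Both shares were near the background. By strand the 33 higher ones were 6 F and 27 R probes, out of 64 F and 76 R probes of that kind, whereas the 55 lower ones were 25 F and 30 R. The uneven split among the higher ones was noticed after the values were seen and was not tested.

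The highest bounds on the Gli2 shRNA array were those of 4 R probes. The probe of chr12:106115442-106115760 was at least 13.4-fold higher, with 11.6 in control cells and 208 with the Gli2 shRNA, and that of chr2:150080526-150082950 at least 10.9-fold (5.48 and 170). The probe of chr5:22926562-22927468 was at least 9.58-fold higher (10.9 and 148) and that of chr4:46583780-46614788 at least 7.31-fold (3.06 and 113). In the interval chr5:22887983-22939658, which contains the chromosome 5 one, the R probe was level at 678 and 901 (0.13), and the R probe of the still longer chr5:22801058-22939737 was at 41.2 and 26.8 (-0.90 ± 0.30).

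Among probes measured on the control array only, the R probe of chr1:138473514-138476054 had the largest bound. Its signal was 235 in control cells and 3.38 with the Gli2 shRNA, at least 18.8-fold lower. The interval chr1:138442536-138521080 contains it, and the R probe of that interval was also measured on the control array only, at 24.2 and 4.44, while an R probe of the almost equal interval chr1:138442536-138520766 was level at 2131 and 2672 (0.05). An F probe on chr9:96680338-96682881 was at least 9.03-fold lower (113 and 8.14), the R probe of chr7:134643616-134651441 at least 6.43-fold (80.4 and 4.53) and the F probe of chr6:99472981-99484210 at least 4.68-fold (58.5 and 10.7). In that chromosome 7 interval the F probe was measured on neither array, and the F probes of 2 short intervals that overlap it were at 0.33 (33.5 and 51.1) and -0.51 (90.6 and 77.2).

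The 832 intervals probed on both strands allow the strands to be compared. Since brightness depends on the probe, the strands were compared by whether they were measured and by their differences, not by their levels. In 292 of them (35.1%) both strands had a probe measured on both arrays. In 255 (30.6%) only 1 strand was measured, with a probe seen on both arrays and the opposite strand on neither, 111 with F measured and 144 with R. In 131 (15.8%) neither strand was measured on either array, and the remaining 154 had a strand measured on 1 array only. Detection of the strands went together: R was measured on both arrays in 66.7% of the intervals where F was. It was so in 46.2% of those where F was measured on neither array. A strand counted as measured if any of its probes was. The parts of probe number, interval length and signal in this were not tested.

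For pairs of probes of the same interval, detection on the control array was alike (both measured or both not) in 63.6% of 486 pairs on the same strand and in 60.0% of 1092 pairs on opposite strands. Of the same-strand pairs, 36.4% thus had 1 probe measured and the other not, nearly as many as the 40.0% of the opposite-strand pairs. The files do not give the place of a probe within its interval.

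Where both probes were measured on both arrays, same-strand probes had closer differences than opposite-strand ones. The median gap between the differences of the probes was 0.16 over 129 same-strand pairs in 108 intervals and 0.28 over 350 opposite-strand pairs in 292 intervals. The signs matched in 69.8% and 56.9% of pairs. Across pairs, entered in both orders, Pearson's r was 0.20 and Spearman's rho 0.30 on the same strand, and 0.01 and 0.04 on opposite strands. These are descriptions over pairs that share the same 2 arrays and, in part, the same probes, and the same-strand pairs were brighter, with a median control signal of 132 against 94.3. Pairs from different intervals that overlap had r of 0.19 on the same strand (350 pairs) and 0.16 on opposite strands (299 pairs), with median gaps of 0.29 and 0.30.

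For a gap between strands, the differences of a strand's measured probes were averaged first. By this measure the 3 widest gaps, of 282 intervals measured on both strands outside chromosome 18, included chr9:67414463-67483185, described above. In chr4:40194362-40202712 the F probe was at 15.6 and 39.5 (1.06 ± 0.33) and the R probe at 30.3 and 21.4 (-0.77 ± 0.36). In chr9:40029344-40050160 the F probe was at 33.7 and 54.9 (0.43 ± 0.25) and the R probe at 44.2 and 22.2 (-1.27 ± 0.30). The F and R probes went opposite ways in both intervals, at low signals. With normexp their differences shrank to 0.16 and -0.38 in the first and to 0.09 and -0.67 in the second. 18 of the 282 intervals had a gap over 1, and the median gap was 0.28.

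At the other end were strands with nearly equal differences in the main scaling. In chr6:83368261-83407280 the F probe was at 66500 and 77130 and the R probe at 580 and 672, with differences of -0.06 and -0.07. In chr11:120079199-120130099 the F probe was at 2596 and 3270 and 1 R probe at 261 and 329, both with 0.06, while the other R probe was measured on neither array. In chr1:134867906-134885481 the F probe (58.3 and 70.8) and the R probe (19.5 and 23.7) both had a difference near 0, at 0.003 and -0.0002. These intervals were picked as the smallest of 282 gaps, and the match was looser with normexp, where the F and R probes were at -0.05 and -0.15 on chromosome 6, 0.10 and 0.03 on chromosome 11, and -0.03 and -0.16 on chromosome 1.

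In 200 of the 355 intervals with 2 or more measured probes (56.3%) all of these had the same sign, 146 with all below 0 and 54 with all above. The median SD between the probes of an interval was 0.20, close to the software error of a single difference (median 0.22 over the interval probes). The interval with the most measured probes was chr8:91569369-91594119, with 5. Its 3 F probes were at -0.21, -0.09 and -0.05 and its 2 R probes at 0.21 and 0.23, so the strands lay on opposite sides of 0 by small amounts, near or below the software error. With normexp, 1 of its R probes was at -0.07.

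In chr17:29374758-29387733, 3 of 4 F probes were measured on both arrays, at -0.48, 0.05 and 0.06, and the R probe was at 0.22. In chr15:61919018-61935580 the 3 R probes were at -0.75, -0.56 and -0.11 and the F probe at 0.30. The R probe with -0.75 ± 0.23 was at 74.7 in control cells and 53.8 with the Gli2 shRNA. In both intervals all probes were within 2-fold. Other intervals also had 4 probes measured on both arrays and are not described here.

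The brightest interval probes were nearly equal on both arrays. The R probe of chr11:22681800-22707775 was at 162800 in control cells and 180800 with the Gli2 shRNA (-0.13 ± 0.20). The R probes of chr7:108209996-108216032 (107700 and 124500, -0.07) and chrX:138967807-138968413 (102700 and 110300, -0.17) followed. These signals compare the arrays for the same probe and say nothing of the order of the RNAs.

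5 interval probes were spotted up to 10 times on each array and so give the precision of a spot. The SD between spots of the log2 signal ran from 0.04 to 0.08 for control cells and from 0.02 to 0.08 with the Gli2 shRNA, at signals of 22390 to 88470. Their differences ran from -0.20 to 0.24. Highest was the F probe of chr17:39983902-39985688, 0.24 ± 0.20, at 22390 in control cells and 32040 with the Gli2 shRNA. The 2 F probes of chr6:116123643-116124550, at 59490 and 60420 in the control, differed by less than the software error, at -0.20 and -0.14. Most interval probes have 1 spot and are much dimmer, so this spread is a lower limit for them.

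As a point of reference, a list of 42 noncoding RNAs known by name, among them regulators of imprinting, X inactivation and neural development and hosts of small nucleolar RNAs, was read from the probes that name them. 37 matched a gene, and 29 of these were measured on both arrays on their brightest probe. 17 lay above 0 and 12 below, with a median of 0.16, against -0.02 over all probes. Miat, a nuclear noncoding RNA of neurons and retina, was the 1 member past 2-fold among these 29. This is near the background, as 3.19% of all non-control probes measured on both arrays passed 2-fold. Miat read 95.6 in control cells and 535 with the Gli2 shRNA, 4.61-fold higher (2.21 ± 0.21), but its other measured probe was at -0.48. The snoRNA host genes Snhg12 (0.40 ± 0.20), Snhg6 (0.34), Snhg5 (0.33), Snhg1 (0.32) and Gas5 (0.31) lay above 0 and within 2-fold, and Snhg3 was at -0.10. Pantr1, a noncoding RNA next to a neural POU factor gene, was bright and level (15910 and 16520, -0.22). Sox2ot, which overlaps Sox2, was at -0.50 ± 0.20, and Norad, which binds Pumilio proteins, at 0.52 ± 0.20. Rian and Mirg, of the imprinted Dlk1-Dio3 region, were measured on the control array only (30.6 and 13.5 for Rian, 35.4 and 14.6 for Mirg). Their bounds were past 2-fold too, on the lower side, at -1.29 and -1.50 on the log2 scale. Of all non-control probes measured on the control array only, 17.7% had such a bound. Their neighbour Meg3 was measured on neither array.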

How the data were processed

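The labels' protocols describe total RNA, carried through Cy3 labelling onto an Agilent array of 1 colour. Agilent Feature Extraction (12.1.0.3, build mm9) gave the deposited processed intensity, which per the file headers is background-subtracted, with no scaling between arrays. The authors' deposited value table is on a log2 scale of unstated origin; each column equals the log2 processed intensity minus 1 constant (8.36 control, 8.64 Gli2 shRNA; medians -3.55 and -3.69).

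Outlier spots (126 and 120) were left out, log2 intensities of a probe averaged, and each array's 75th percentile over non-control probes subtracted (signals of 329 and 399). The error is the software's error of both spots. With 1 array per group no test was run; the size rule was 2-fold. Normexp used the median spot signal in place of the planned mean signal (limma 3.58.1, offset 50). Probes were named through RefSeq accessions of GRCm38.p6. Scripts (Python 3.11.15, pandas 2.3.3) were tested on simulated data. Members, lists and rules were chosen with earlier results of these data known. The intervals named are those with the 10 highest and 10 lowest differences of stable sign with normexp and the 4 highest bounds each way. The 3 widest and 3 smallest strand gaps, 3 with the most measured probes (ties not all given) and the 3 brightest were also named. Chromosome 18 was left out, and others were chosen as said. Probe sequences and nearby genes were not analysed here.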

Additional observations from a re-analysis of the deposited data

How the results depend on the processing

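Counts past 2-fold depended on the treatment of dim spots. Against 21 higher and 50 lower interval probes, normexp gave 6 and 8, the stricter filter (3 times the lowest signal well above background) 8 and 13, and no filter 148 and 538. Median scaling and cyclic loess gave 32 lower each, with 25 higher. Those are 1.5% and 1.2%, beside 1.2% and 2.0% of all probes with median scaling and 1.4% and 1.8% with loess. At 1.5-fold 59 were higher and 200 lower, and at 3-fold 10 and 7, so that the excess of lower probes is not seen at 3-fold. The median of -0.07 became 0.067 with median scaling, which reverses its sign, while that of all probes went from -0.02 to 0.11. The causes of these shifts were not tested. The median of the interval probes was -0.12 with normexp, -0.093 with the percentile of probes measured on both arrays and -0.033 with quantile normalization. It was -0.012 with cyclic loess, -0.080 without a filter and -0.038 with the stricter filter. The count of intervals whose probes all went the same way was 516 without a filter and 117 with the stricter filter, where more and fewer intervals enter, and was within 1.5 times of 200 under the other alternatives. Over all probes, normexp gave 97 higher and 152 lower against 437 and 554. Of the probes named from the main rules, 22 were past 2-fold. These 22 stayed past it with the other scalings (median, measured probes, quantile, loess) and the authors' values, and 10 did with normexp. No called probe of these changed sign under these 6 alternatives, which tells little. The probes named by rank were taken only if they kept their sign with normexp. Median scaling, scaling on measured probes and the authors' values each shift all differences by 1 constant. No replicate could be left out. No paired analysis was possible because each group has 1 array.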
